A study of Mus musculus with 11 samples.

Results

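The proteasome genes were taken as all rows of the expression table whose symbol is Psma, Psmb, Psmc, Psmd, Psme, Psmf or Psmg followed by a number. This rule found 47 of the 25311 genes in the table. They comprised 7 genes of the α ring (Psma), 7 of the constitutive β ring (Psmb1 to Psmb7), 4 inducible or tissue-restricted β subunits (Psmb8 to Psmb11), 6 base ATPases (Psmc), 14 genes of the Psmd series, 4 activators (Psme), 1 inhibitor (Psmf1) and 4 assembly chaperones (Psmg). Psma8 was not analysed here.

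Retinas of C57BL/6J mice at postnatal day 10 were dissociated with papain and their cells were barcoded in droplets by inDrop. The 11 libraries fell into 4 groups. Control mice received PBS (3 mice), and Phase I ROP mice received streptozotocin (STZ), which kills insulin-producing cells and gives the hyperglycemia used as a model of Phase I retinopathy of prematurity (3 mice). The other two groups were STZ-treated pups whose nursing dams were fed a diet enriched in ω-3 (2 mice) or ω-6 (3 mice) long-chain polyunsaturated fatty acids. The paper describes Phase I ROP and control mice, and ω-3 and ω-6 mice, as littermates. It also kept STZ-treated litters smaller than those without STZ. How littermates were spread over litter sizes, or over dams on different diets, is not stated. No group received a defined diet without STZ. Pups of both sexes were used.

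The proteasome is the protease that degrades most ubiquitin-tagged proteins. Its core particle is a barrel of α and β rings, in which Psmb5, Psmb6 and Psmb7 carry the constitutive active sites, and its regulatory particle holds a ring of Psmc ATPases that unfold substrates and a set of Psmd proteins that bind, deubiquitinate or position them. Psmb8, Psmb9 and Psmb10 replace the constitutive catalytic subunits in immunoproteasomes, mainly in immune cells and under interferon, and Psme1 and Psme2 form the interferon-inducible PA28αβ cap. Photoreceptors renew large amounts of protein every day, and the proteasome is part of how they clear misfolded proteins. When proteasome activity is low, the transcription factor Nfe2l1, processed by the protease Ddi2, raises transcription of proteasome genes in many cell types.

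The sequence before the start site is shown for 5 members, and a link between sequence and the changes was not tested. By the main fits, Psma7 and Psmb3 were lower in Phase I ROP in all 5 cell classes tested, and Psme4 was not called in any class. Psmb5 and Psmb6 are catalytic subunits. The sequences are from RefSeq, build GRCm38.p6, run 5′ to 3′ on the strand of the gene, and end at the start site or before the first base of an annotated exon of the gene. Capitals mark CCAAT, TGACNNNGC (the core of the antioxidant response element) and GTGACG.
Psma7 (chr2:180042465-180042714, - strand): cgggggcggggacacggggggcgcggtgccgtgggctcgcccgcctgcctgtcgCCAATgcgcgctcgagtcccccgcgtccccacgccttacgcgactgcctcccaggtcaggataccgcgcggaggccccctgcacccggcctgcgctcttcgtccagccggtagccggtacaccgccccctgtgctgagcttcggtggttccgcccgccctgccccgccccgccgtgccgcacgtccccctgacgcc
Psmb3 (chr11:97703184-97703398, + strand): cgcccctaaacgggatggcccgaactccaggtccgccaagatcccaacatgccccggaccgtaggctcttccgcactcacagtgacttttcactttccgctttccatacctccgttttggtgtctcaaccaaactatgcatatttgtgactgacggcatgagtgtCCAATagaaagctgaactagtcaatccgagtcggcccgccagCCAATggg
Psmb5 (chr14:54618023-54618245, - strand): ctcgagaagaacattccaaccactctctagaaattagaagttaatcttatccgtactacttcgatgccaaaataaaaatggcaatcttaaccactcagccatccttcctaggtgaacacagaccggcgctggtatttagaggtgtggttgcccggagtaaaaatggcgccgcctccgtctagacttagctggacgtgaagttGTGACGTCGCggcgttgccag
Psmb6 (chr11:70525107-70525356, + strand): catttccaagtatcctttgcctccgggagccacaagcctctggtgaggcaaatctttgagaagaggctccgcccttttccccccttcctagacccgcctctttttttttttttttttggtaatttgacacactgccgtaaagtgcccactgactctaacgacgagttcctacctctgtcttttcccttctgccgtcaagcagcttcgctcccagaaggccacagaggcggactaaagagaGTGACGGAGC
Psme4 (chr11:30771525-30771725, + strand): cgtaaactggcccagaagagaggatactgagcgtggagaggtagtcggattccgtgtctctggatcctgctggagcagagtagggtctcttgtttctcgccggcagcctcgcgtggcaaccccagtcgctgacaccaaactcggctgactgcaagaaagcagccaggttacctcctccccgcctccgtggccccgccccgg

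Promoters were found for 40 of the 47 members. Psmb1, Psmb2, Psmb7, Psmc3, Psmd3, Psmd7 and Psmg2 had no entry. In all, 5 motifs were searched on both strands of the 250 bases before the start, with the results for these genes already known, and all 5 are given. TGACNNNGC was found for 12.5% of members and 11.5% of the 27025 genes in the table. TGACTCAGC, which is 1 form of TGACNNNGC, was found for 0 members and 0.426% of genes. CCAAT was found for 35.0% and 37.5%, and the palindrome of nuclear respiratory factor 1 for 2.5% (Psma2 only) and 0.877%. GTGACG, which overlaps TGACNNNGC in Psmb5 and Psmb6, was found for 8 of the 40 members (Psma1, Psma5, Psmb5, Psmb6, Psmb9, Psmd5, Psmd6 and Psme3), and for 9.02% of genes. It had the largest gap in percentage points of the 5 motifs searched, and no test was made of any of them.

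The libraries held 2565568 to 6517776 unique molecular identifiers (UMIs, each standing for 1 captured transcript) and 787 to 2624 cell barcodes. After a filter at 300 genes, 20033 of 20067 cells were clustered and 5 classes were tested on sums per mouse: rods (8591 cells), cones (1126), bipolar cells (3596), amacrine cells (2850) and Müller glia (1425). The defining markers of each class were present in it. The amacrine clusters and 5 of the 6 rod clusters were named by their share of cells with markers, since their leading genes were not on the marker lists, so these names are rebuilt and less sure. The control libraries stood apart from the 8 STZ-treated libraries in ways other than the proteasome. Over all cells, the small nuclear RNA Rn7sk lay at 193 to 290 CPM (UMIs of a gene per 1000000 UMIs of the cells summed) in control and at 1 to 16 in the STZ-treated mice, and mitochondrial mt-Rnr2 at 28195 to 41188 against 3060 to 8232. The summed level of 20 genes that respond to tissue handling was 2675 to 3138 in control and 4878 to 6637 in the STZ-treated mice, although in bipolar cells alone the ranges overlapped, at 2653 to 3197 and 2811 to 3271. Markers of other cell types moved with these groups too. The summed level of 9 rod markers was 3021 to 4227 in control cones and 7061 to 17938 in cones of the STZ-treated mice, 337 to 349 against 476 to 1445 in amacrine cells, and 264 to 496 against 593 to 3451 in Müller glia. In bipolar cells the ranges overlapped, at 633 to 1025 and 888 to 2602, and in rods they were 12234 to 15146 and 18111 to 25916. The 9 cone markers in cones lay at 27214 to 32075 in control and at 8183 to 19158 in the STZ-treated mice. Whether treatment or preparation set these differences cannot be told apart, and their part in the results below was not tested. In addition, 1157 of 18872 distinct barcodes occurred in more than 1 library.

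The summed level of the core particle was lower in every STZ-treated mouse than in every control mouse, in each of the 5 classes. In rods, the 14 α and β ring genes together made up 2139, 2164 and 2174 in the control mice, and 1225, 1336 and 1424 in the Phase I ROP mice, all in CPM of the class. The ω-3 mice had 1201 and 1145, and the ω-6 mice 1444, 1419 and 1442. Control and STZ-treated mice did not overlap, and the ω-6 mice lay above the ω-3 mice.

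In bipolar cells the core particle sum was 2550 ± 105 in control, 1593 ± 64.8 in Phase I ROP, 1419 ± 49.1 in ω-3 and 1686 ± 71.0 in ω-6 (mean ± SD, n = 3, 3, 2 and 3). In amacrine cells it was 2466 ± 70.3, 1540 ± 10.8, 1389 ± 35.1 and 1627 ± 109. Müller glia had 2162 ± 195, 1336 ± 84.4, 1375 ± 121 and 1427 ± 20.4. Here the diet groups overlapped. In cones the means were 2228 ± 135, 1413 ± 279, 1345 ± 95.6 and 1557 ± 13.3, with only 13 to 46 control cones per mouse.

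**Figure D1:**
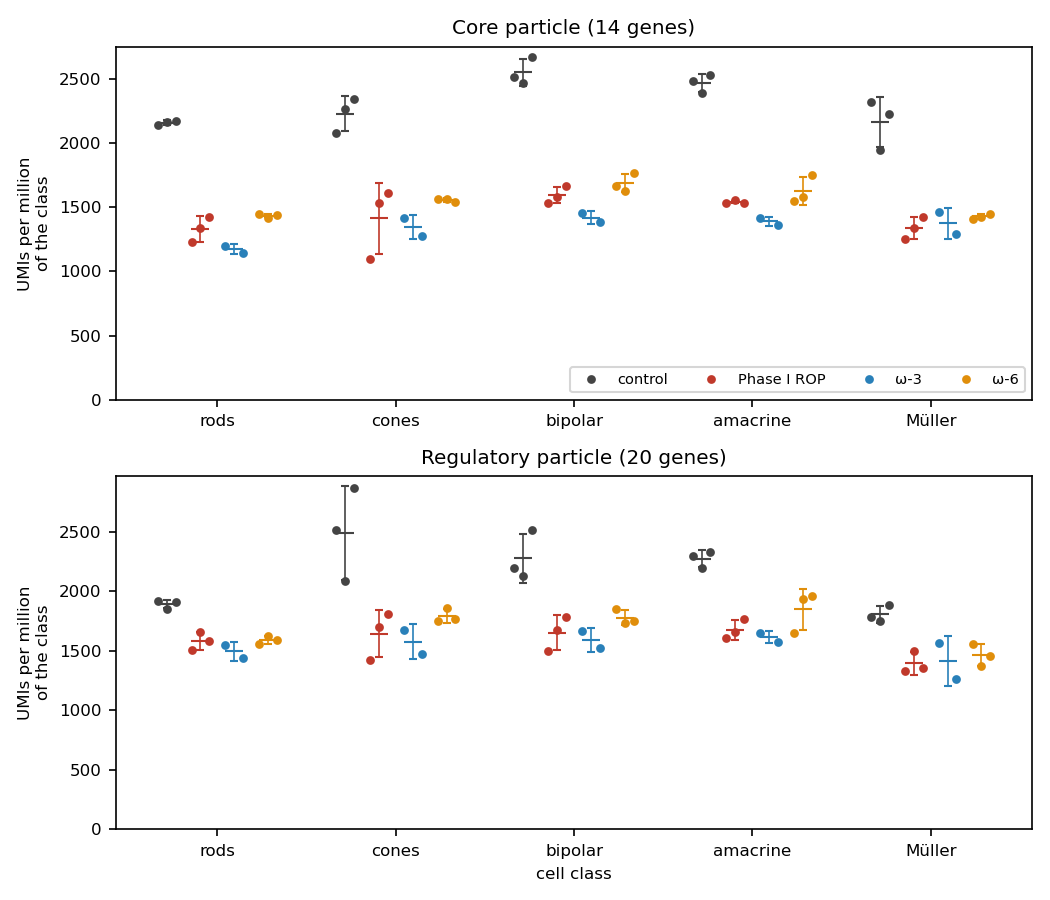
Summed level of the 14 core particle genes (top) and the 20 Psmc and Psmd genes (bottom) in CPM, by cell class. Points are mice, with the mean and SD; the control mice lie above all STZ-treated mice in every class, for example at 2139 to 2174 against 1145 to 1444 for the core particle in rods.

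The Psmd series holds assembly chaperones besides subunits of the regulatory particle. The 20 Psmc and Psmd genes showed the same separation with a smaller gap. In rods their sum was 1852 to 1917 in control and 1438 to 1658 in the 8 STZ-treated mice. In amacrine cells it was 2191 to 2329 against 1576 to 1961, and in Müller glia 1753 to 1885 against 1265 to 1562. Among classes, the core particle sum was highest in bipolar cells in 10 of 11 mice and exceeded that of rods in 11 of 11. The order of bipolar and amacrine cells for the sum over all 47 members was mixed, with bipolar cells higher in 6 of 11 mice. These levels are shares of a class, in which less proteasome RNA and more of other RNA cannot be told apart.

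To ask how retinal cells differed after STZ, Phase I ROP mice were compared with control mice by edgeR's quasi-likelihood test on sums per mouse. The p-values were adjusted by Benjamini-Hochberg over all genes tested, with a threshold of 0.05. Proteasome genes were mostly lower. In amacrine cells 34 of the 44 members tested were lower, where 21.1% of all genes were, and 1 was higher, where 17.8% were. In bipolar cells 28 of 44 were lower (21.3% of all genes were higher and 23.9% lower) and 0 were higher. In rods 17 of 39 were lower and 2 higher, against 19.7% and 19.1% of all genes. In cones 8 of 24 were lower and 0 higher, against 7.9% and 10.9%, and in Müller glia 6 of 37 and 0, against 5.03% and 5.81%. At an unadjusted p under 0.05, 0 members were higher in cones, bipolar cells and Müller glia, and DESeq2 called 0 higher in these 3 classes. In cones the count without 1 mouse ranged from 0, without control replicate 3, to 7. In Müller glia it was 2 without control replicate 1, Phase I ROP replicate 1 or Phase I ROP replicate 3, 3 without control replicate 3 or Phase I ROP replicate 2, and 4 without control replicate 2. It was also 3 in Müller glia with DESeq2 and with total UMIs as the only scaling.

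The median log2 fold change of the members tested was -0.62 for rods, -0.97 for cones, -0.83 for bipolar cells, -0.83 for amacrine cells and -0.65 for Müller glia. The median over all genes tested was 0.05, 0.10, 0.02, 0.03 and 0.00. These fold changes use TMM factors, which centre the bulk of genes, whereas the levels are shares of total UMIs. With total UMIs as the only scaling, the median of all genes was 0.34, 0.42, 0.45, 0.39 and 0.16, and the members' median minus that of all genes was -0.67, -1.07, -0.85, -0.86 and -0.66, as against -0.67, -1.07, -0.85, -0.86 and -0.65 with TMM. Under that scaling 12 members were lower and 2 higher in rods, 2 and 0 in cones, 19 and 3 for bipolar cells, and 19 and 4 for amacrine cells. In Müller glia 3 were lower and 0 higher. All genes then split into 2137 higher and 990 lower in rods (1385 and 1433 with TMM), 644 and 135 in cones (340 and 247), 3814 and 1291 in bipolar cells (2137 and 2399), 3504 and 1226 in amacrine cells (1828 and 2167) and 416 and 155 in Müller glia (282 and 244).

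Transcript length moved with these changes. Among all genes tested with an annotated length, those whose longest transcript is under 2000 bases had a median log2 fold change of -0.46 for rods, -0.42 for cones, -0.63 for bipolar cells, -0.65 for amacrine cells and -0.31 for Müller glia, and longer genes 0.37, 0.45, 0.30, 0.27 and 0.22. The members under 2000 bases had medians of -0.78, -1.04, -1.03, -0.96 and -0.74, and the longer members -0.11, -0.60, -0.23, -0.50 and -0.20. Pearson's r of log2 length with log2 fold change over members was 0.54 for rods, 0.28 for cones, 0.47 for bipolar cells, 0.46 for amacrine cells and 0.56 for Müller glia, and over all genes 0.27, 0.39, 0.39, 0.46 and 0.30. These are descriptions across genes, which share libraries and are not independent replicates. The part of length in the members' fall was not tested.

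**Figure D2:**
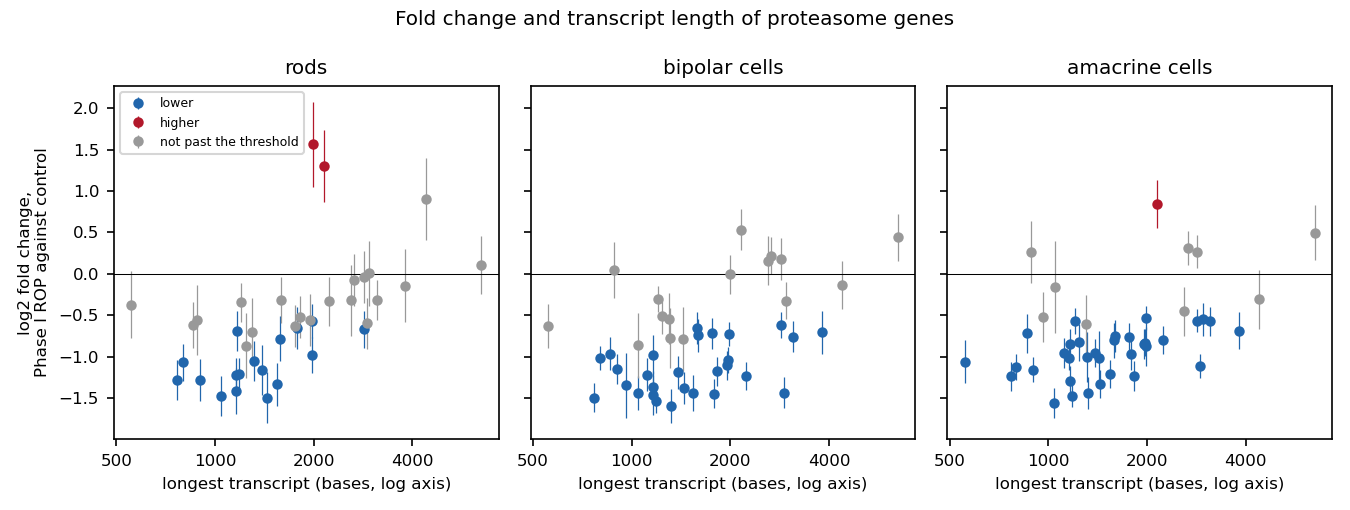
Log2 fold change of each tested proteasome gene in Phase I ROP against control (vertical axis, with its standard error) by the length of its longest annotated transcript in bases (horizontal log axis), in 3 classes. Blue genes were called lower, red higher and gray neither; shorter members lie lower, with Pearson's r of 0.54, 0.47 and 0.46.

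**Figure D3:**
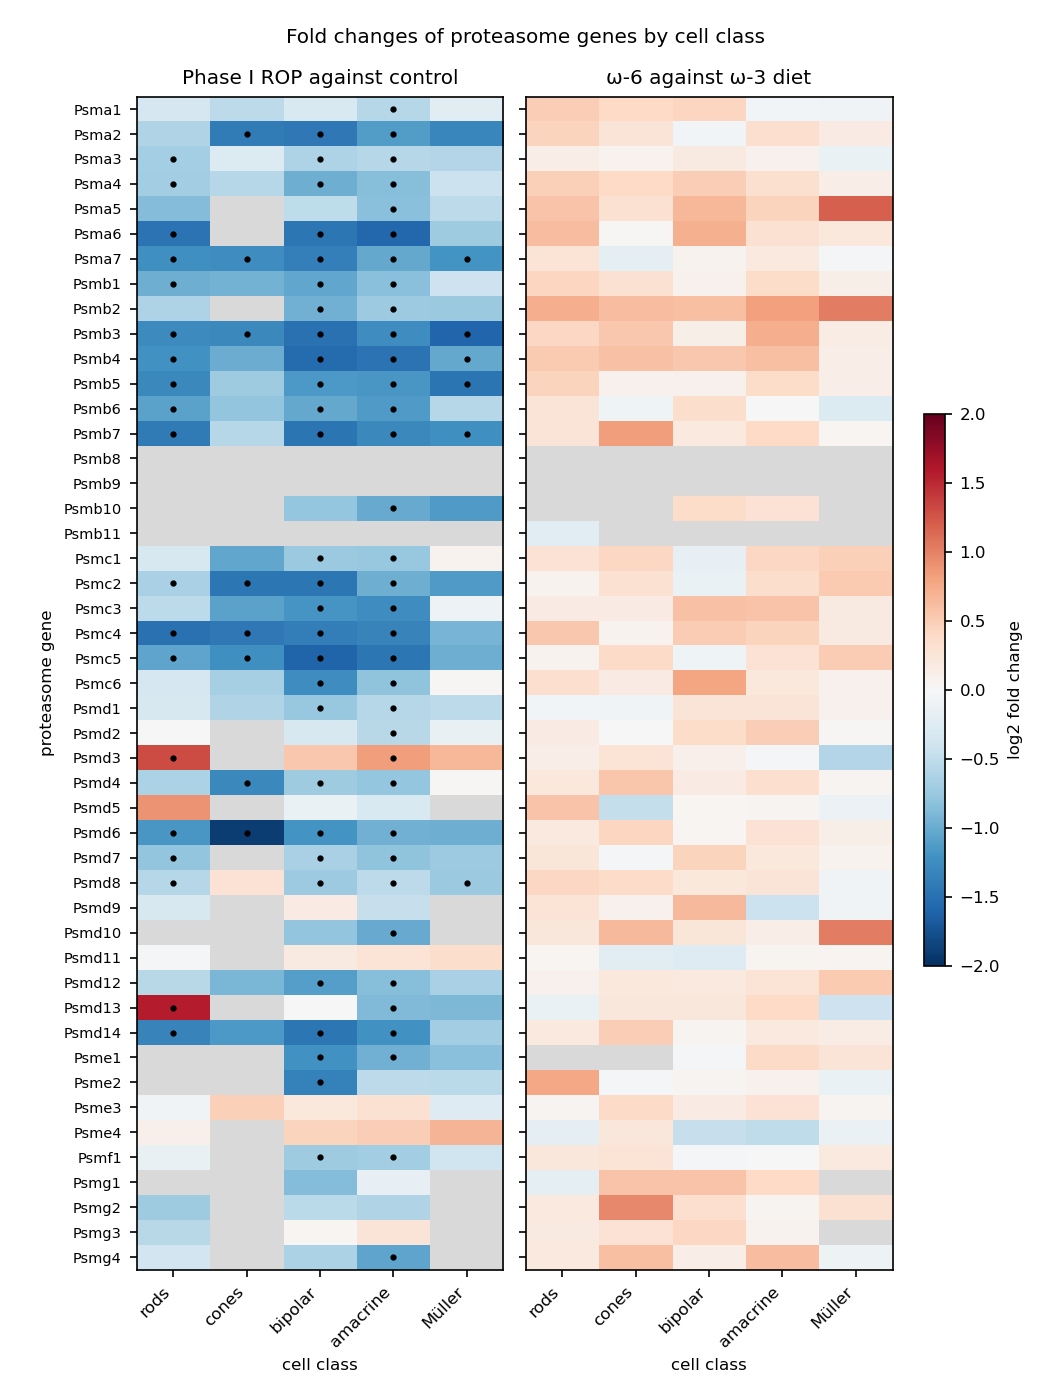
Log2 fold change of each of the 47 proteasome genes (rows) in 5 cell classes (columns) for Phase I ROP against control (left) and ω-6 against ω-3 diet (right). Dots mark an adjusted p under 0.05 and gray cells were not tested; 34 members were lower in amacrine cells on the left, and 0 members were called in any class on the right.

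The α ring, whose Psma proteins gate the entrance of the core, had all 7 members lower in amacrine cells, 5 of 7 in bipolar cells, 4 of 7 in rods, 2 of 5 tested in cones and 1 of 7 in Müller glia. By the main fits Psma7 fell in all 5 classes. In cones 0 members were called without control replicate 3 or without a filter. Psma7 also lost its call in Müller glia without control replicate 1, Phase I ROP replicate 1 or Phase I ROP replicate 3, where 2 members were called. In rods it lay at 230, 208 and 216 CPM in control and at 105, 117 and 121 in Phase I ROP. No Phase I ROP mouse reached the lowest control mouse (log2 fold change -1.22 ± 0.21 SE, adjusted p = 0.000196, edgeR). Psma6 showed the largest fall of any member in amacrine cells, from 132, 139 and 144 to 67.1, 53.6 and 57.7, a 2.96-fold change (adjusted p = 2.99e-05, edgeR), and fell 2.78-fold in rods. Psma1 was called in amacrine cells only, with a log2 fold change between -0.57 and -0.21 over the classes.

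All 7 constitutive β subunits were lower in both bipolar and amacrine cells. In rods 6 of 7 were lower, in Müller glia 4 of 7, and in cones 1 of 6 tested. Psmb3, a structural β subunit, fell in all 5 classes by the main fits, but its cone call was lost without control replicate 3 or without a filter. Its levels in Müller glia were 202, 214 and 217 in control and 84.7, 46.4 and 90.3 in Phase I ROP, the largest fall in that class (log2 fold change -1.59 ± 0.29, adjusted p = 0.00308, edgeR). Psmb4 had 386, 367 and 326 in control bipolar cells and 157, 157 and 179 in Phase I ROP. The groups were far apart, a 2.91-fold fall (adjusted p = 2.07e-06, edgeR).

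Of the catalytic subunits, Psmb5, which carries the chymotrypsin-like activity, fell in 4 classes. In Müller glia it lay at 163, 227 and 199 in control and at 78.5, 56.7 and 90.3 in Phase I ROP, a 2.77-fold fall (adjusted p = 0.00454, edgeR). In cones the groups overlapped, at 108, 234 and 140 against 67.9, 98.7 and 152 (adjusted p = 0.251, edgeR). Psmb7, with the trypsin-like activity, fell 2.67-fold in rods, from 121, 132 and 104 to 55.8, 65.4 and 41.2. Its call in Müller glia (adjusted p = 0.0453, edgeR) was lost under 13 of 17 alternatives, with adjusted p from 0.0530 to 0.153 where lost. Psmb6, with the caspase-like activity, fell in rods, bipolar and amacrine cells, by 2.10-, 2.02- and 2.19-fold.

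The levels of the catalytic subunits were also set out by class. Psmb5 had its highest median over the 11 mice in amacrine cells (140 CPM, range 110 to 264), then cones (103, 67.9 to 234), Müller glia (95.6, 56.7 to 227), bipolar cells (80.9, 71.9 to 150) and rods (68.2, 55.0 to 136), and the ranges of neighbours in this order overlapped. Psmb6 was highest in bipolar cells (167, 139 to 268), followed by cones (151), amacrine cells (150) and rods (143), and lowest in Müller glia (139, 88.5 to 229). Psmb7 had medians of 64.2 in bipolar cells, 63.7 in amacrine cells, 55.8 in rods, 50.7 in cones and 42.7 in Müller glia, with overlapping ranges.

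The immunoproteasome subunits were rare. Psmb8, Psmb9 and Psmb11, a thymus-restricted subunit, were tested in no class of the Phase I ROP comparison. Psmb8 had 4 UMIs in the 11258574 of rods, 0.4 CPM (exact Poisson 95% interval 0.1 to 0.9), and 40 in Müller glia, 10.1 CPM (7.2 to 13.8), with 1.8 for cones, 1.0 for bipolar cells and 0.95 for amacrine cells. The highest share was in the 59 microglia-like cells, summed over all mice, with 18 UMIs, or 113 CPM (67.2 to 179). Psmb9 had 0 UMIs in rods, for which the same interval reaches up to 0.33 CPM, and 6 in microglia-like cells, 37.8 CPM (13.9 to 82.2). Endothelial-like cells had 17.6 CPM of Psmb8 (9.1 to 30.7) and 14.6 of Psmb9 (7.0 to 26.9). The intervals cover counting error only. Psmb10 was found in neurons as well, at 24.9 CPM in amacrine cells and 17.2 in bipolar cells against 2.8 in rods, 5.5 in cones and 19.8 in Müller glia. These levels are sums over all mice, and control mice made up different shares of each class. In amacrine cells Psmb10 fell from 33.4 ± 1.4 to 21.2 ± 1.6, a 2.01-fold change (adjusted p = 0.0155, edgeR).

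**Figure D4:**
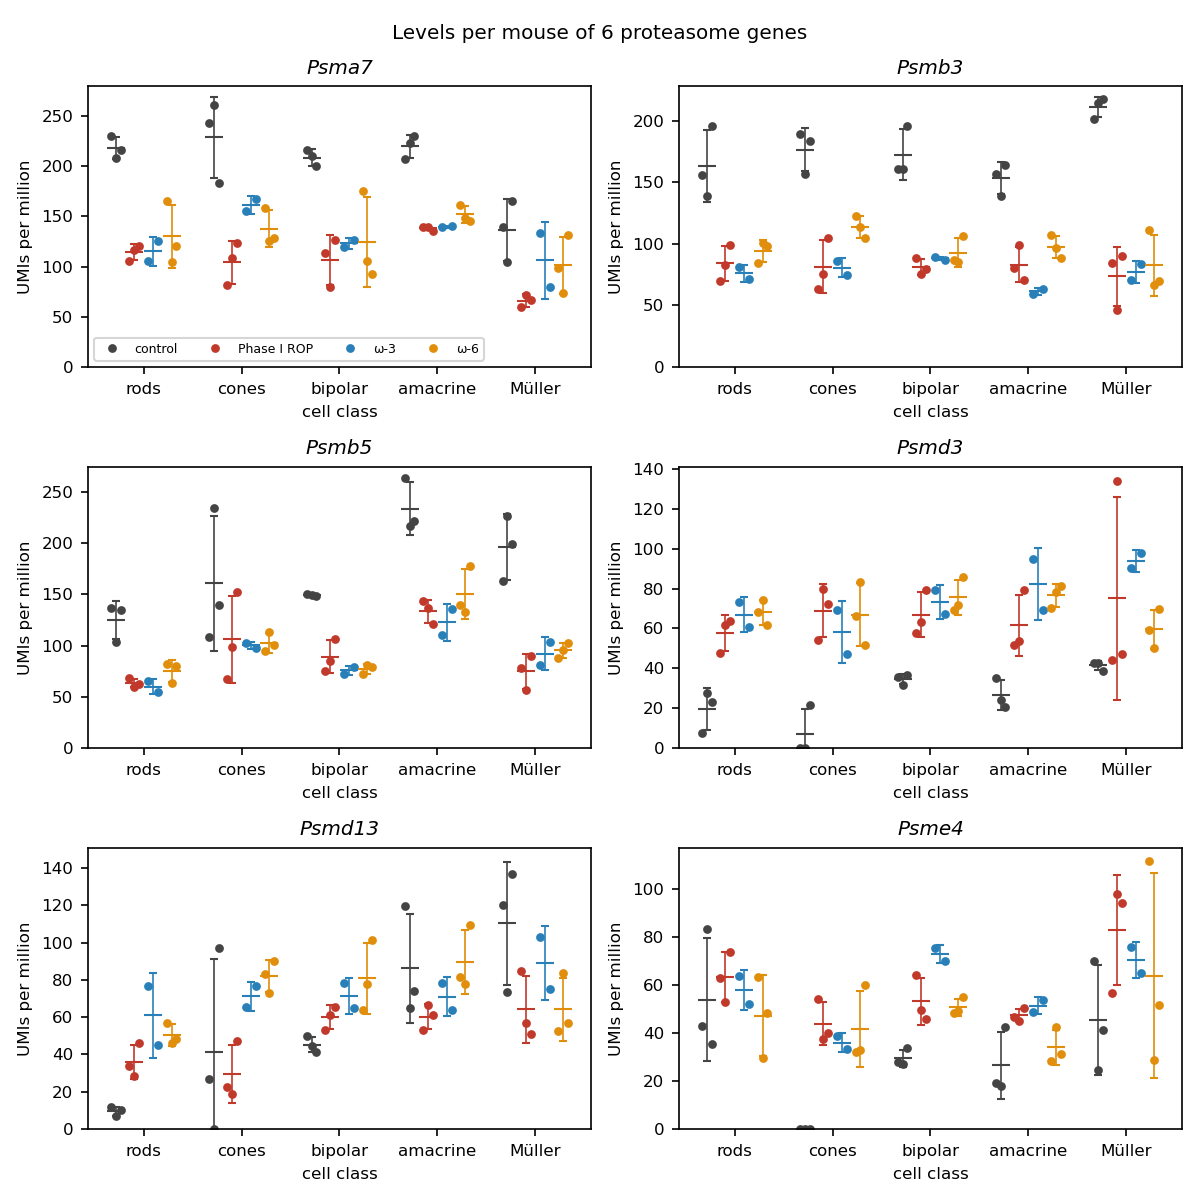
Levels of 6 proteasome genes in CPM (vertical axis) by cell class, for each mouse (points) with the mean and SD of each group. Psma7, Psmb3 and Psmb5 have their highest group mean in control in each class, with overlap between mice for Psmb5 in cones and Psma7 in Müller glia, Psmd3 is lowest in the control mice in all 5 classes, and Psmd13 in rods rises from 6.9 to 11.7 in control to 28.3 to 46.1 in Phase I ROP.

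The Psmc ATPases were all lower in bipolar and amacrine cells, 6 of 6 in each. In rods 3 of 6 were lower, in cones 3 of 6, and in Müller glia 0 of 6, of which 3 were lower at an unadjusted p under 0.05 and DESeq2 called 0. Psmc5 fell from 148, 130 and 149 to 44.9, 81.2 and 64.2 in bipolar cells, the largest fall of any member there (3.02-fold, adjusted p = 4.24e-05, edgeR), and 2.71-fold in amacrine cells. Psmc4 fell 2.82-fold in rods, although its lowest control mouse, at 69.4, lay below the highest Phase I ROP mouse, at 72.6. Psmc2 in cones went from 297, 391 and 356 to 104, 160 and 170 with no overlap (adjusted p = 0.00389, edgeR, up to 0.0629 over the alternatives). Psmc4 in cones, at 81.0, 104 and 162 against 40.7, 56.4 and 61.6, had 3 to 15 UMIs per control mouse (adjusted p = 0.0387, edgeR, up to 0.466).

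The Psmd series was the most mixed. Of 14 members, 10 were lower and 1 higher in amacrine cells, 7 and 0 were called in bipolar cells, 4 and 2 of 13 tested in rods, 2 and 0 of 6 in cones, and 1 and 0 of 11 in Müller glia. Psmd14, the deubiquitinase of the lid, was lower in 3 classes, with log2 fold changes of -1.44 to -0.69 over all 5. Psmd6, a lid subunit, was lower in 4, and in cones had 54.0, 182 and 162 in control and 22.6, 65.8 and 39.9 in Phase I ROP, with overlap (adjusted p = 0.0152, edgeR, up to 0.197 over the alternatives). Psmd11, also of the lid, was called in no class with TMM, but was called higher in amacrine cells with total UMIs as the only scaling. There it was lower in every control mouse than in all 8 STZ-treated mice, an order that 28.3% of all genes had.

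Psmd3, a large scaffold subunit of the lid, was the only member higher in 2 classes. In rods it lay at 7.8, 27.7 and 22.9 CPM in control and at 47.5, 61.9 and 63.8 in Phase I ROP (log2 fold change 1.30 ± 0.44, adjusted p = 0.0255, edgeR), from 2 to 9 UMIs per control mouse. In amacrine cells it went from 35.3, 24.2 and 20.6 to 51.6, 53.6 and 79.3, a 1.79-fold rise (adjusted p = 0.0323, edgeR). Neither call held by every alternative, with adjusted p up to 0.197 in rods and 0.151 in amacrine cells. The level of Psmd3 was below that of all 8 STZ-treated mice in every control mouse in each of the 5 classes, an order that 28.4% of all genes had for rods, 20.7% for cones, 29.6% for bipolar cells, 28.3% for amacrine cells and 8.79% for Müller glia. Its locus, chr11:98682554-98695979 in GRCm38, overlaps Gm12356 on the other strand.

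Psmd13, another lid subunit, was tested in 4 classes, with 3 log2 fold changes below 0, and had opposite calls in 2 of them. In bipolar cells it was not called and its log2 fold change was below 0. Its CPM there was nevertheless lower in every control mouse than in all 8 STZ-treated mice, an order that 29.6% of all genes had. It was not tested in cones. In rods it rose from 11.7, 6.9 and 10.2 to 34.1, 28.3 and 46.1, with 1 to 4 UMIs per control mouse (log2 fold change 1.56 ± 0.51, adjusted p = 0.0224, edgeR, and 0.0071 to 0.115 over the alternatives). In amacrine cells it had 119, 64.9 and 74.2 in control and 52.9, 66.3 and 61.3 in Phase I ROP, with overlap (log2 fold change -0.88 ± 0.24, adjusted p = 0.00932, edgeR). In a single fit over the 5 classes, with the mouse as a term, the Phase I ROP effect on Psmd13 differed between classes (adjusted p = 0.00833, edgeR), and it was the only one of 45 members tested to do so, where 9.57% of all genes did. The next members were Psmc6 (adjusted p = 0.0565) and Psmc3 (adjusted p = 0.0633), both near 0 in Müller glia and lower in bipolar and amacrine cells. The call for Psmd13 was lost without control replicate 1, control replicate 3 or Phase I ROP replicate 3 and with classes set by marker score, with adjusted p of 0.0895, 0.0792, 0.0977 and 0.221. The gene overlaps Gm15542 on the same strand and Sirt3 on the other. The largest rod cluster held 66.2% of the rods in control and 88.5% in Phase I ROP. The part of this in the rod values was not tested.

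The activators went different ways. Psme1 fell from 126 ± 24.1 to 72.0 ± 7.9 in bipolar cells (2.33-fold, adjusted p = 0.000322, edgeR) and 1.94-fold in amacrine cells, and Psme2 was lower in bipolar cells only. Psme1 differed widely by class, with 106 CPM in amacrine cells and 85.3 in bipolar cells against 6.5 in rods, 9.2 in cones and 72.2 in Müller glia, each summed over all mice. On the same scale Psme2 lay at 15.8 for rods, 16.3 for cones, 26.7 for bipolar cells, 28.2 for amacrine cells and 44.9 for Müller glia. Psme3 lay, with the classes in that order, at 67.8, 83.8, 103, 87.1 and 84.1, and Psme4 at 54.8, 37.7, 49.9, 39.3 and 64.6. Control mice made up different shares of the UMIs of each class, so class and treatment are mixed in these sums. Psme3, the nuclear PA28γ cap, and Psme4, the PA200 cap, were called in no class. Psme3 had 62.2 ± 5.7 in control amacrine cells and 98.4 ± 14.8 in Phase I ROP, with no overlap (adjusted p = 0.238, edgeR), and Psme4 had 26.6 ± 13.9 and 47.4 ± 2.8 (adjusted p = 0.251, edgeR). With total UMIs as the only scaling, both were called higher in bipolar and amacrine cells. The inhibitor Psmf1 was lower in bipolar and amacrine cells, and of the Psmg assembly chaperones only Psmg4 was called, in amacrine cells (2.09-fold lower).

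Of the 44 members tested in any class, 35 were lower in at least 1 class and 19 in at least 3, where 26.4% and 8.75% of all genes tested in any class were. Of the 24 members tested in all 5 classes, 2 were lower in all 5, where 2.85% of such genes were, and 9 of the 44 were lower in none. The 2 were not called in cones under every alternative. The overlap of calls between classes is a description, since the classes come from the same mice.

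Other genes of the pathway were called in both directions. Of 31 genes that bind, regulate or feed the proteasome, 6 were higher and 7 lower in amacrine cells (17.8% and 21.1% of all genes were), 6 and 9 of 30 in bipolar cells (21.3% and 23.9%), 4 and 4 of 29 in rods (19.1% and 19.7%), 1 and 2 of 17 in cones (10.9% and 7.9%), and 2 and 3 of 20 in Müller glia (5.81% and 5.03%). With so few genes in the list, nothing particular to it is read from these counts. Uchl5, a deubiquitinase that docks on the regulatory particle, had 287, 377 and 197 CPM in control bipolar cells and 53.0, 39.6 and 58.1 in Phase I ROP (log2 fold change -2.91 ± 0.25), and was lower in 4 classes. Pomp, the chaperone of β ring assembly, and Sem1, a small lid subunit, were each lower in 3. The polyubiquitin gene Ubb fell in 4 classes, in bipolar cells from 3570, 3327 and 3777 to 1581, 1838 and 1904.

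Nfe2l1 and Ddi2 went the other way and were higher in rods, bipolar and amacrine cells. Neither was tested in cones or Müller glia in this comparison. Ngly1, on the same list, was not called in rods, bipolar or amacrine cells (log2 fold changes 0.38, -0.29 and -0.48). In amacrine cells Nfe2l1 had 19.3, 25.5 and 26.1 in control and 60.7, 63.5 and 57.7 in Phase I ROP, with a log2 fold change of 1.01 ± 0.26 (adjusted p = 0.00812, edgeR). In rods Nfe2l1 had 7.8, 0.0 and 7.6 in control, near the floor, against 31.0, 35.4 and 45.1 in Phase I ROP. Ddi2 in rods had 31.2, 48.5 and 38.1 against 111, 129 and 97.2, a log2 fold change of 1.26 ± 0.30 (adjusted p = 0.00363, edgeR). Zfand5, which binds the proteasome and speeds degradation, was higher in the same 3 classes and in Müller glia.

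The diet groups were then set beside Phase I ROP, without a test between them. The labels do not say that they shared litters with the control mice. In bipolar cells 19 of 42 members with a mean level of at least 20 CPM were higher in every control mouse than in all 8 STZ-treated mice, where 12.0% of all genes were. The count was 19 of 42 in amacrine cells (10.4% of all genes), 11 of 39 in rods (12.6%), 7 of 40 in cones (4.5%) and 12 of 42 in Müller glia (4.95%). The reverse order was seen for 3 members each for rods (28.4% of all genes), cones (20.7%), bipolar cells (29.6%) and amacrine cells (28.3%), and for Psmd3 alone for Müller glia (8.79%).

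To ask what the fatty acids of the diet changed under STZ, ω-6 mice were compared with ω-3 mice in the same way. By edgeR 0 members passed the threshold in any class, and DESeq2 also called 0. Of all genes, 0.0164% were called in rods and 0.0% in cones, bipolar cells, amacrine cells and Müller glia. At an unadjusted p under 0.05, 13 of 43 members were higher in ω-6 in rods and 0 lower, where 5.96% and 4.54% of all genes were. In amacrine cells 6 of 44 were higher (4.88% of genes, and 4.03% lower), in bipolar cells 5 of 44 (2.17% and 2.04%), in cones 5 of 42 (4.14% and 3.9%) and in Müller glia 2 of 41 (1.77% and 1.79%), and 0 were lower in these 4 classes.

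The median log2 fold change of the members was 0.23 for rods, 0.28 for cones, 0.20 for bipolar cells, 0.29 for amacrine cells and 0.12 for Müller glia, with all-gene medians of 0.00 to 0.02. For Müller glia the median was -0.01 without ω-3 replicate 2 and 0.27 without ω-3 replicate 1. With total UMIs as the only scaling the members' medians were 0.05 to 0.24 and those of all genes -0.09 to -0.04. In rods all 7 α ring and all 7 constitutive β ring members had values above 0, where 6267 of 12203 genes did. Their medians were 0.48 and 0.43, and the Psmc and Psmd genes had medians of 0.22 and 0.19. Of the 7 α ring members, 6 were above 0 in cones, bipolar and amacrine cells and 4 in Müller glia. Of the 7 β ring members, 7 were above 0 in bipolar cells and 6 in cones, amacrine cells and Müller glia. With 2 ω-3 mice the spread of that group rests on a single difference. Over all cells, mt-Rnr2 lay at 3060 to 3612 CPM in the ω-3 mice and at 4985 to 8232 in the ω-6 mice, and Rn7sk at 2.5 to 4.4 and 7.5 to 16.2. In amacrine cells the 9 rod markers summed to 1361 to 1445 in ω-3 and 550 to 1103 in ω-6. The part of these differences in the diet values was not tested.

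Psmb4, a structural β subunit, was among the 2 members with the smallest p in 4 classes. In rods it had 114 and 96.4 CPM in ω-3 and 152, 131 and 138 in ω-6. The groups did not overlap (log2 fold change 0.53 ± 0.16, adjusted p = 0.395, edgeR). In amacrine cells it had 136 and 129 against 176, 192 and 207, again without overlap (0.61 ± 0.17, adjusted p = 0.441, edgeR). In cones the values were 121 and 99.5 against 162, 157 and 167 (0.59 ± 0.20, adjusted p = 0.585, edgeR), and in bipolar cells 158 and 127 against 194, 189 and 216 (0.54 ± 0.21, adjusted p = 0.991, edgeR). Psmb2 in rods had 46.7 and 48.0 against 78.6, 68.8 and 72.0 (0.73 ± 0.19, adjusted p = 0.395, edgeR). Psmc6 in bipolar cells had 90.1 and 80.0 against 149, 132 and 142 (0.79 ± 0.22, adjusted p = 0.991, edgeR), and Psma5 in Müller glia 32.6 and 38.6 against 68.8, 62.1 and 103 (2.30-fold, adjusted p = 0.994, edgeR). None passed the threshold, and since these members were named for the smallest p in their class, the separation of their groups supports nothing further.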

How the data were processed

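The authors deposited 1 table of UMI counts per gene and cell for retinas of 11 mice, made from inDrop libraries by barcode filtering and pseudoalignment to GRCm38 transcripts. Cells were filtered at 300 genes and clustered with Seurat 5.3.0 (2000 variable genes, 75 components, resolution 0.2, 25 clusters). Clusters were named from marker lists by leading genes or, failing that, by a share score of at least 0.5. That naming rule was set after the clusters had been seen, and 6 clusters stayed unnamed (2024 cells). Scrublet (scanpy 1.11.5) called 0.359% of cells and so did not work, hence the alternative without the 5% highest scores per mouse. Counts were summed per mouse and class and tested with edgeR 4.0.16 (filterByExpr, TMM, quasi-likelihood, only the groups compared), and DESeq2 1.42.0 was an alternative. The scripts were tested on simulated data. The p-values measure the spread between mice. Replicates of a group differed by more than sampling noise (chi-square per gene 3.71 to 9.83). Levels are CPM of the class sum, computed here.

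Members, lists, motifs and the sequences shown were chosen with earlier results of these data known. Total-count scaling, the addition of unnamed clusters to the nearest class, the limit of 2000 bases and the comparison of control with all 8 STZ-treated mice were added after the data had been seen. Named were, per class, up to 3 called members with the largest rise and fall in Phase I ROP, the 2 with the smallest p between diets, the 3 with the smallest p over classes, and catalytic, inducible and activator genes. Psma1, Psma7, Psmd11, Psmd14, Psmf1, Psmg4 and the single genes of the pathway list were named after their values were seen. Lengths and overlaps are from GENCODE M21. 1 rod marker is not reported here, and the sum over the other 9 was added after the data had been seen.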

Additional observations from a re-analysis of the deposited data

Results flagged for a closer look

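Psmd13 is listed because its Phase I ROP effect differed between the 5 cell classes by the test of the difference itself. Its log2 fold changes spanned 2.71 in that fit (adjusted p = 0.00833, edgeR), and adjusted p ranged from 0.0112 to 0.221 over the alternatives. No group had the 4 mice needed to look for a single outlying sample.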

How the results depend on the processing

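In Phase I ROP against control, the members' median log2 fold change was below 0 in every class, between -1.09 and -0.31, under each alternative for which it was computed. These were 15 of 16 alternatives in cones and 16 of 17 in each other class. The count of members called in cones went from 8 to 5 with DESeq2, 0 without a filter, 2 with total counts as the only scaling and 0 of 1 tested after thinning. It was 12 in rods without a filter and 9 after thinning, 23 in amacrine cells with total counts, and 3 in Müller glia with DESeq2 and with total counts. Leaving out 1 mouse gave 13 to 21 for rods, 0 to 7 for cones (0 without control replicate 3, 1 without Phase I ROP replicate 1 or 2, 2 without replicate 3), 25 to 30 in bipolar cells, 29 to 35 in amacrine cells and 2 to 4 in Müller glia. For the effect over classes the count was 0 to 2 without 1 mouse, 2 with median-of-ratios scaling, total counts, no filter or without the highest doublet scores, and 0 with classes by marker score. Between diets it stayed at 0 under all alternatives. The Müller glia median between diets ranged from -0.0129 without ω-3 replicate 2 to 0.2715 without ω-3 replicate 1. Where 1 ω-3 mouse was left, it was assumed to vary like the ω-6 mice.

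Same-numbered Phase I ROP and control mice correlated at -0.03, 0.16 and 0.24 in their deviations from the group means, and 4 of 6 mice correlated best with their own number. These values do not settle whether a number marks a litter, and the main fits did not take the numbers as pairs. The 2 numbers shared by ω-3 and ω-6 mice correlated at 0.27 and 0.50, with fewer than 3 pairs and no label that a number marks a litter. With the replicate number as a block, 15 members were called for rods, 1 for cones, 28 for bipolar cells, 34 for amacrine cells (Psmd3 was lost), 5 for Müller glia and 0 between diets in each class. The causes of these changes were not tested. Control cones, at 13 to 46 cells per mouse, limit what could be tested there.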
